A study of Mus musculus with 2 samples.

Results

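The 44 genes described here belong to the contractile and calcium-handling machinery of visceral smooth muscle and were followed in RNA-seq libraries of the mouse stomach at embryonic day 14.5 (E14.5). They were chosen by symbol from a list, and all 44 were found among the 43346 Ensembl genes of the deposited tables. The libraries form 1 group: stomach of B6NCrl embryos at 14.5 days, with no second genotype, treatment or stage. Per the labels 1 pup gave the stomach for each library, although the sex label reads pooled male and female. The stomachs were collected on day 15 (replicate 1) and day 17 (replicate 2) of the same month. RNA was extracted with a mirVana kit, 10 ng was the starting quantity, RNAs over 200 nt were kept, spike-in RNAs were added, and a Smart-seq protocol document is linked to both samples. Each value is given per library or as mean ± SD (n = 2). With 2 libraries of 1 group no test between conditions exists, and no p-value is given.

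Smooth muscle of the gut wall contracts when calcium entering the cell, or released from its stores, binds calmodulin and switches on myosin light chain kinase. The kinase phosphorylates the regulatory light chain of myosin, whose heads then pull on actin filaments anchored at dense bodies and at dense plaques of the membrane, and a myosin phosphatase reverses the step. Serum response factor and its cofactor myocardin bind CArG boxes and switch on many of these genes, and several of them are also spliced differently in smooth muscle and in other cells.

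The libraries held 25072242 (replicate 1) and 25599910 (replicate 2) expected counts, and the 44 genes took 219844 and 217013 of them. The tissue label was held against marker lists. All 10 general smooth muscle markers were detected, but apart from Acta2 and Actg2 these are members. That list is therefore no separate check of the label. Of 14 skeletal muscle markers 6 were detected, with a summed level of 21.1 TPM in replicate 1 and 18.0 TPM in replicate 2, and the defining factors Myod1 and Myog stayed between 0.10 and 0.13 TPM. Of 12 cardiac markers 8 were detected, summing to 75.3 and 62.6 TPM, of which Actc1, an actin that other muscle also makes, gave 38.3 and 32.1 TPM. Markers of the exocrine pancreas, a neighbouring organ, summed to 476 TPM in replicate 1 against 7.98 TPM in replicate 2, with 3 of 8 detected in both. All 5 mesothelial markers were detected and summed to 423 and 354 TPM, of which Krt19, also a keratin of simple epithelia, gave 343 and 290.3 TPM. All 4 epithelial markers were detected and summed to 1384 and 1217 TPM. Pericyte and vascular mural cell markers summed to 183 and 172 TPM, and markers of interstitial cells of Cajal to 147 and 140 TPM. All 7 fibroblast matrix markers were detected and summed to 4129 and 3814 TPM. The part of these cell types in the members' levels was not tested. In whole tissue, fewer muscle cells and less RNA per muscle cell cannot be told apart, and members made in many cell types, such as Myl6, Flna, Actn4 and Myh9, report on all of them.

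The level unit, TPM (transcripts per 1000000), divides reads by transcript length, so that levels of different genes can be set side by side. Detection means at least TPM 1 in each of the libraries. By that rule 42 of the 44 genes were detected, where 34.9% of all 43346 genes were. Ryr2 and Ldb3 were the members not detected. The 44 genes summed to 6222 TPM in replicate 1 and 6010 TPM in replicate 2 (6116 ± 150 TPM), which is 0.612% ± 0.015 of the TPM total. Their median was 52.7 and 50.8 TPM, against 16.0 and 15.3 TPM over 15122 detected nuclear genes. The members were chosen with earlier results of these data known, so neither comparison is a test of the set. The 2 myosin light chains Myl9 and Myl6 alone made 41.5% and 42.8% of the summed level. Another 12 members lay above 100 TPM and 6 lay under 5 TPM, so the set spanned more than 3 orders of magnitude. Of the 43 neighbouring pairs in the order of mean level, 17 had overlapping library values and hold no order between them.

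**Figure D1:**
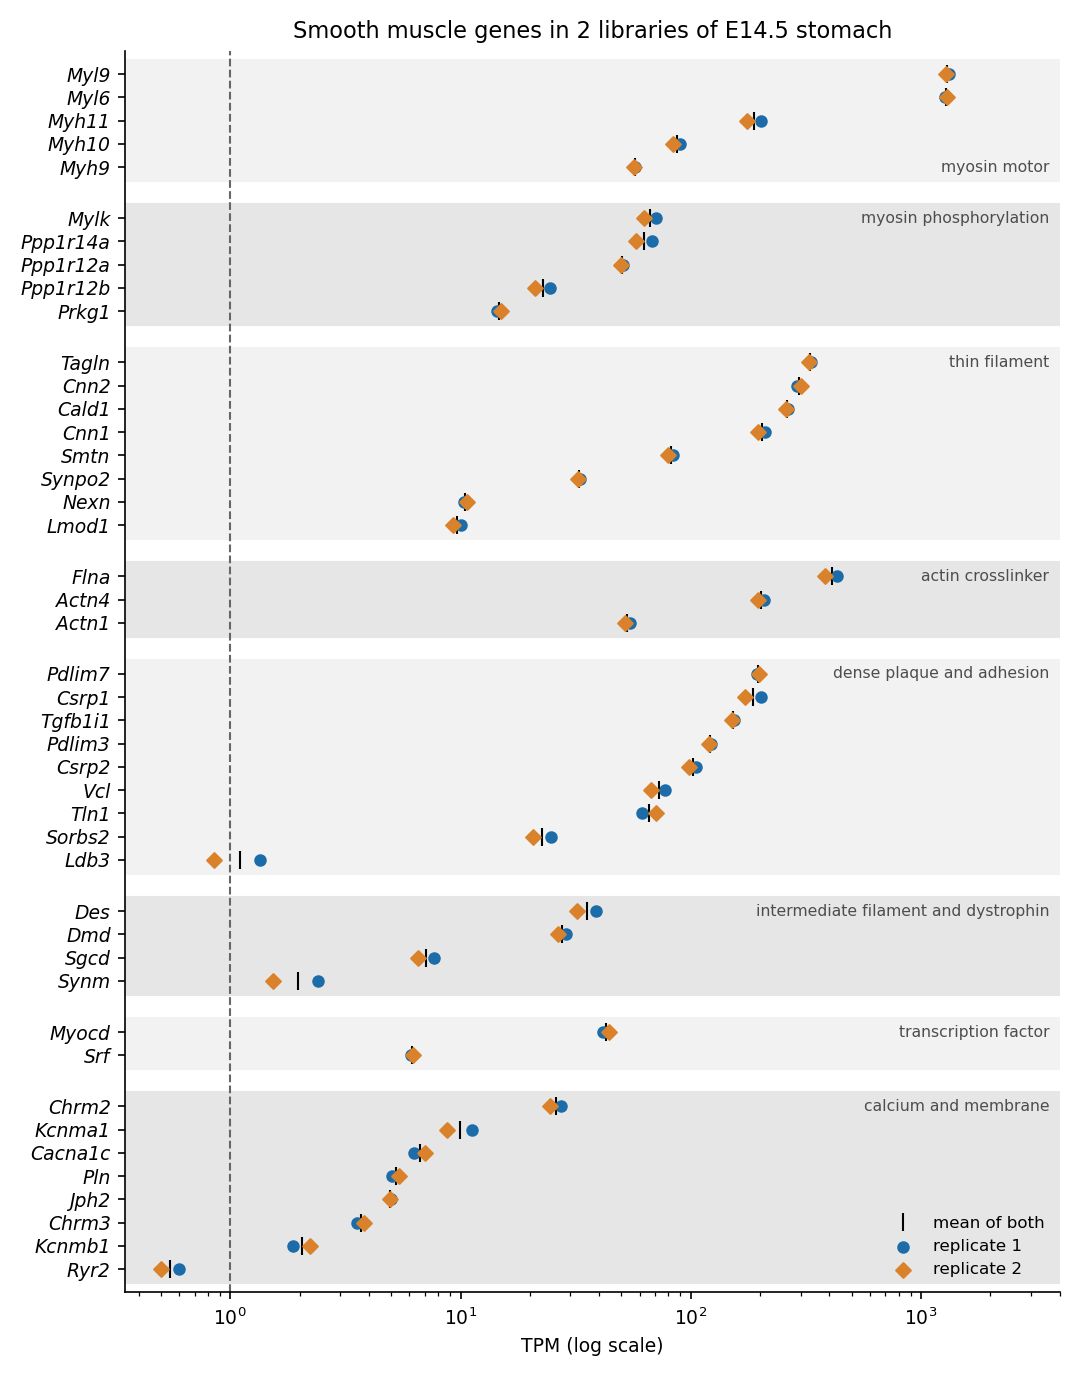
TPM on a log axis of the 44 genes, grouped by role, in replicate 1 (circles) and replicate 2 (diamonds), with the mean as a vertical bar and a dashed line at TPM 1. Myl9 and Myl6 sit near 1300 TPM, most calcium and membrane genes under 12 TPM, and Ryr2 left of the line in both libraries.

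The myosin motor was led by its light chains and, among the heavy chains, by the smooth muscle form. Myl9, the regulatory light chain that the kinase phosphorylates, read 1317 TPM in replicate 1 and 1279 TPM in replicate 2. Myl6, the essential light chain, made in most cell types, read 1268 and 1294 TPM, so the library ranges of the pair overlapped. Myh11, the smooth muscle myosin heavy chain (chr16:14194535-14291372, minus strand, mm10), read 203 and 175 TPM. Myh10, a non-muscle heavy chain, read 89.5 and 84.0 TPM. Myh9, the other non-muscle heavy chain counted, read 57.4 and 56.6 TPM, and the 3 heavy chains did not overlap. Within their summed TPM, Myh11 took 56.7% ± 1.78, Myh10 26.1% ± 0.709 and Myh9 17.2% ± 1.07. By gene TPM the non-muscle chains together thus held over 40%. That part depends on the models counted. Myh11 took 59.95% in expected counts and 65.6% over coding models with no incomplete end, which leaves the non-muscle chains less. Myl9 exceeded Myh11 by 6.90-fold ± 0.568 in TPM. Of the 4 other myosin chains listed, Myl12a (470 and 437 TPM), Myl12b (245 and 219 TPM) and Myh14 (10.3 and 11.1 TPM) were detected and Myl6b was not.

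**Figure D2:**
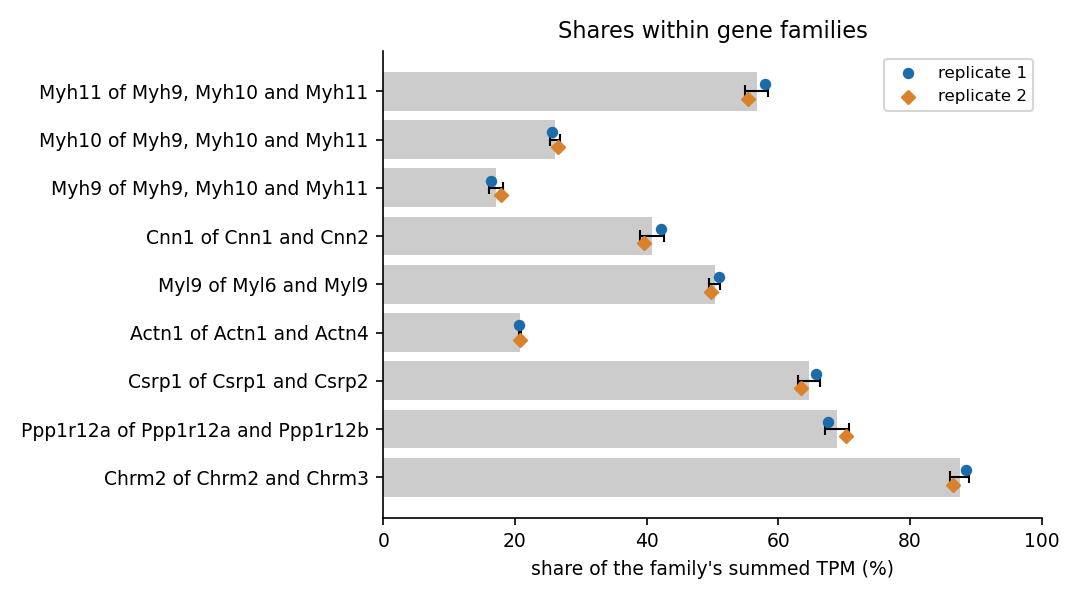
Share of a family's summed TPM (%) taken by the first-named gene, as the mean (bar) with SD and the values of replicate 1 (circles) and replicate 2 (diamonds). Myh11 takes more than Myh10 and Myh9 together in each library, and Cnn1 and Actn1 are the smaller share of their pairs.

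Splice forms divide each myosin heavy chain further, but for Myh11 the deposited tables hold 1 transcript only. This model, Myh11-201, codes for 1972 codons and has neither a 21-base exon, the head insert of the form typical of fast visceral muscle, nor a 39-base tail exon. The share of each form cannot be read from these files. For Myh10 the tables hold 1 model with both head inserts known from neurons, Myh10-201, and it took almost nothing. Myh10-203, of 1976 codons and without the inserts, took 61.5% of the gene's transcripts in replicate 1 and 55.7% in replicate 2. Myh10-201 took 0.290% and 0%, or 33.2 and 0 expected counts of 8197 and 7712. The posterior SD of that count was 50.9 in replicate 1, larger than the count itself. The remainder lay mostly on 2 non-coding models, Myh10-206 (24.8% and 26.4%) and Myh10-210 (8.32% and 12.5%). Of the exon bases of Myh10-201, 63 lie in no other Myh10 transcript. The 2 insert exons are shown as the sequence that Myh10-201 has and Myh10-203 lacks, from GENCODE M21 transcripts on mm10, plus strand, chr11:68745935-68745964 and chr11:68775365-68775427.
Myh10 first insert, 30 bases: caggaatcgcctaagcccgtgaaaccccag
Myh10 second insert, 63 bases: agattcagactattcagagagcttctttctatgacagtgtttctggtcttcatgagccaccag

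The regulators of myosin phosphorylation lay in a middle range. Mylk, the myosin light chain kinase, read 70.8 and 62.8 TPM. Ppp1r14a (CPI-17), an inhibitor of myosin phosphatase, read 68.0 and 57.7 TPM, with ranges overlapping those of Mylk. Ppp1r12a, the myosin-targeting subunit of the phosphatase, read 51.0 and 49.9 TPM. Its relative Ppp1r12b, known from striated and smooth muscle, read 24.5 and 21.2 TPM, so Ppp1r12a took 68.9% ± 1.86 of the pair's TPM. Prkg1, the cGMP-dependent kinase through which nitric oxide relaxes the muscle, was the lowest at 14.4 and 14.9 TPM. Upstream, all 5 genes listed for RhoA signalling and the phosphatase were detected, with Rhoa (252 and 225 TPM), Ppp1cb (82.0 and 70.7 TPM) and Ppp1r12c (48.4 and 37.7 TPM) the highest. All 4 genes listed for nitric oxide and cGMP were detected as well, led by both subunits of the nitric oxide receptor, Gucy1a1 (61.2 and 61.9 TPM) and Gucy1b1 (52.1 and 47.1 TPM), and by Pde5a (39.9 and 39.1 TPM), which breaks cGMP down.

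Mylk makes a long kinase, a short smooth muscle kinase and the small protein telokin from separate starts. The tables hold the long coding model alone, Mylk-201 of 1950 codons, which took 99.2% and 99.0%, beside a retained intron. Ppp1r12a likewise has 1 model, of 1004 codons, with the 31-base exon near the end of the coding region whose use sets how the subunit ends. For both genes the alternative forms were not measured. Prkg1 has both of its known starts annotated. The beta form, Prkg1-202 of 686 codons, took 76.0% and 71.3% of the gene's transcripts. The alpha form, Prkg1-201 of 671 codons, took 21.9% and 24.0%, on 203 and 244 expected counts against 507 and 523 for beta. Beta was thus the larger in each library, and the order is the same in expected counts. In the annotation the beta model has 400 exon bases found in no other Prkg1 transcript. The alpha model is 3914 bases long in the deposited tables and 6976 in GENCODE M21, and length enters the share.

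Thin filament genes made the second largest sum of the 8 roles, 1234 and 1211 TPM, against 2934 and 2888 TPM for the myosin motor. Tagln (SM22 alpha), an early smooth muscle marker that binds actin, read 333 and 325 TPM. Cnn2, a calponin made in many cells, read 289 and 300 TPM. Cald1, caldesmon, which holds back the actin-myosin interaction, read 265 and 259 TPM. Cnn1, the smooth muscle calponin, read 210 and 196 TPM, below Cnn2 in both libraries, and took 40.8% ± 1.82 of the pair. Smtn (smoothelin), a marker of contractile smooth muscle, read 84.0 and 79.5 TPM, and Synpo2, an actin-binding partner of filamin and actinin, 33.2 and 32.3 TPM. Nexn (nexilin), at 10.3 and 10.7 TPM, and Lmod1 (leiomodin), an actin filament nucleator, at 10.0 and 9.28 TPM, were the low end of the group. The listed actins and tropomyosins that these proteins bind were all detected, 4 of 4 and 4 of 4. Actb read 5993 and 5994 TPM, Actg1 2223 and 2232 TPM, and the smooth muscle actins Acta2 1929 and 1870 TPM and Actg2 1121 and 1015 TPM. Actg2, the enteric form, thus lay 5.67-fold ± 0.186 above Myh11. Tpm1 (980 and 912 TPM), Tpm2 (640 and 580 TPM) and Tpm4 (482 and 438 TPM) led the tropomyosins.

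Caldesmon has a smooth muscle and a non-muscle form. The heavy form of smooth muscle differs from the light form of other cells by a long central stretch. In the annotation this comes from 624 additional bases of an extended exon (chr6:34746016-34746639). A separate exon of 78 bases, labelled heavy exon below, is also in the heavy model. The light model Cald1-201, at 0 counts in both libraries, holds that exon too, so the exon alone does not mark the heavy form. The heavy model, Cald1-205 of 768 codons, took 2.08% of Cald1 transcripts in replicate 1 and 2.26% in replicate 2, or 435 and 489 expected counts, with posterior SDs of 74.8 and 93.8. Complete light models took 32.2% and 31.9%, or 5711 and 5875 counts. No exon base of Cald1-205 is its own, since each also lies in another Cald1 transcript, so its reads can be placed on other models. Cald1-210, an incomplete coding model that holds all 624 bases of the extension, took 4.6% in each library, or 198 and 206 counts. Together these 2 models, which alone hold the whole extension, took 6.68% and 6.86% of Cald1 transcripts (633 and 694 counts), still under the share of the complete light models. Most of the rest lay on other incomplete or non-coding models, of which Cald1-211, a fragment of 956 bases, took 38.0% and 38.9%. Among complete coding models alone, heavy caldesmon took 6.34% ± 0.37 and light 93.7% ± 0.37. The 78-base exon and the first 150 bases of the extension are printed as sequence that Cald1-205 carries and Cald1-204, the leading light model, lacks, plus strand, at chr6:34747892-34747969 and chr6:34746016-34746165 (mm10, GENCODE M21).
Cald1 heavy exon: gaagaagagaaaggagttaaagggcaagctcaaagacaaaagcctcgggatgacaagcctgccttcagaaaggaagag
Cald1 heavy extension, start: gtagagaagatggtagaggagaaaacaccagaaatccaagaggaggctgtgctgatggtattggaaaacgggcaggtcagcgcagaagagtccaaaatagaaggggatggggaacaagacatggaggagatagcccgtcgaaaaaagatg

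Smoothelin also comes in a short form A, known from visceral muscle, and a long form B, known from vascular muscle. The long coding models took 87.8% and 86.2% of Smtn transcripts, on 3916 and 3874 expected counts. They were mostly Smtn-202, of 921 codons, at 51.3% and 55.4%, and Smtn-203, of 923 codons, at 35.5% and 30.1%. Short Smtn-201, of 436 codons, took 2.76% and 3.08%, on 64.3 and 72.1 counts with posterior SDs of 12.6 and 12.4. In this visceral organ the model of the visceral form thus held the smaller share in both libraries. Smtn-201 has 510 exon bases in no other Smtn transcript, over which its reads can be told from those of the long models.

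Actin crosslinkers were read at high levels. Flna, filamin A, made in most cells, read 433 and 384 TPM. Actn4, a non-muscle alpha-actinin, read 209 and 196 TPM. Actn1, the alpha-actinin of smooth muscle dense bodies and of focal adhesions, read 54.4 and 51.7 TPM and took 20.8% ± 0.135 of the actinin pair. Actn1 has a pair of exons used in turn within its calcium-binding region: one of 81 bases in non-muscle cells, which keeps the protein calcium-sensitive, and one of 66 bases in smooth muscle. Actn1-202, with the smooth muscle exon, took 36.8% of transcripts in replicate 1 and 39.4% in replicate 2 (865 and 936 expected counts). Actn1-201, with the non-muscle exon, took 63.2% and 60.6% (2108 and 2039 counts). The smooth muscle form was the minor one in both libraries, yet its share was above that of both models with the heavy Cald1 stretch. The models also differ outside the exon pair, since Actn1-201 has 1136 bases that Actn1-202 lacks against 66 the other way, and the split leans on these too. The exons are shown side by side, both on the minus strand of chromosome 12 (chr12:80170686-80170766 and chr12:80170183-80170248, mm10, GENCODE M21).
Actn1 non-muscle exon: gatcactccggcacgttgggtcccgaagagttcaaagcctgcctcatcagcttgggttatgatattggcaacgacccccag
Actn1 smooth muscle exon: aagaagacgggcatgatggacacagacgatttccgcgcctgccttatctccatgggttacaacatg

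**Figure D3:**
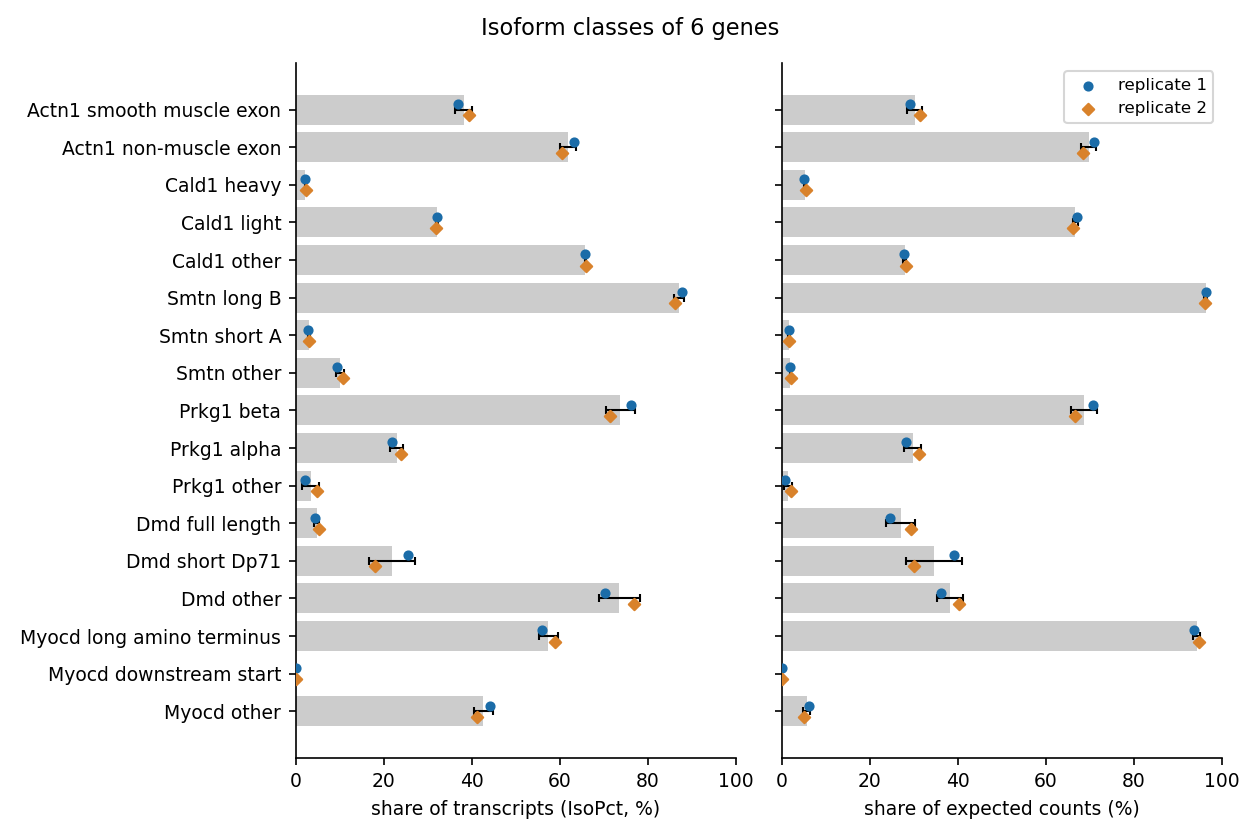
Isoform classes of 6 genes as a share of transcripts (left, %) and of expected counts (right, %), mean (bar) with SD and the values of replicate 1 (circles) and replicate 2 (diamonds). The complete heavy Cald1 model and short Smtn stay under 6% on either scale, the smooth muscle exon class of Actn1 lies between 29.1% and 39.4%, and the class of other Cald1, Dmd and Myocd models shrinks in counts because its models are short.

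Dense plaque and adhesion genes, which tie actin to the membrane and matrix, summed to 942 and 898 TPM over 9 members. Pdlim7, a LIM-domain scaffold on actin, read 194 and 198 TPM. Csrp1, a LIM protein of smooth muscle, read 202 and 171 TPM, and its relative Csrp2 105 and 98.6 TPM, so that Csrp1 took 64.6% ± 1.65 of the pair. Tgfb1i1 (Hic-5), a focal adhesion LIM protein, read 155 and 151 TPM, and Pdlim3 (ALP), a binding partner of actinin, 122 and 120 TPM. Each of these 5 read above the adhesion proteins that link integrins to actin. Vcl, vinculin, read 77.6 and 67.4 TPM, and Tln1, talin, 61.4 and 70.3 TPM, with overlapping ranges. Sorbs2, an adaptor of adhesions and Z-discs, read 24.7 and 20.7 TPM. Ldb3, a further LIM-domain protein, known from the Z-disc of striated muscle, was the lowest of the role, at 1.35 and 0.850 TPM on 74 counts in each library. The muscle form of Vcl, metavinculin, carries an additional exon, but the tables hold 1 Vcl model, of 1066 codons, so that form was not measured.

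Intermediate filament and dystrophin genes were lower. Des, desmin, the muscle intermediate filament, read 38.8 and 32.2 TPM, 9.33-fold ± 1.07 below Tagln. Dmd, dystrophin, which links actin to the membrane complex, read 28.6 and 26.4 TPM. Sgcd, a sarcoglycan of that complex, read 7.67 and 6.53 TPM, and Synm, the intermediate filament protein synemin, 2.41 and 1.54 TPM. The other dystrophin complex genes listed were led by Dag1 (61.8 and 57.9 TPM), Sgce (46.8 and 47.7 TPM) and Sgcb (21.4 and 21.6 TPM). Sgca, a sarcoglycan of striated muscle, was not detected, at 0.360 and 0.230 TPM. For Dmd the gene level hides several products. The full-length model, Dmd-203 of 3678 codons, took 4.33% and 5.16% of transcripts but 24.7% and 29.4% of expected counts, because it is 14910 bases long. Short Dp71 models, the form found in most tissues, took 25.5% and 18.1% of transcripts and 39.1% and 30.2% of counts. A retained intron model, Dmd-213, took 48.9% and 47.9% of transcripts on 303 and 291 counts. At transcript level full-length dystrophin thus lay at 1.24 and 1.36 TPM, well under the 28.6 and 26.4 TPM of the gene.

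The transcription factors differed widely in level. Myocd, myocardin, the cofactor that switches on the smooth muscle programme, read 41.4 and 44.1 TPM. Srf, the factor that binds the CArG box, read 6.10 and 6.20 TPM, so that Myocd lay 6.95-fold ± 0.227 above Srf. All 9 other Srf cofactors and regulators listed were detected, with Fhl2 (79.6 and 71.8 TPM), Fhl1 (52.3 and 46.4 TPM) and Mrtfa (26.9 and 28.4 TPM) the highest. The 2 coding models with the long amino terminus took 55.9% and 58.9% of Myocd transcripts and 93.7% and 94.9% of its counts. They differ by an exon of 144 bases: Myocd-203, of 983 codons, holds it and took 46.2% and 50.8%, and Myocd-202, of 935 codons, lacks it and took 9.69% and 8.05%. The split is loosely set. Myocd-202 had 327 and 307 counts with posterior SDs of 116 and 161, and only 13 exon bases of its own. A model with a downstream start, Myocd-201 of 855 codons, the kind known as the smooth muscle form, was listed at 0 counts in both libraries. It has no exon base of its own, so reads from it could be placed on the long models. Another 42.0% and 39.4% of Myocd transcripts lay on Myocd-205, a non-coding fragment of 377 bases with 81.6 and 86.5 counts. Without it and the other incomplete models Myocd read 24.6 ± 1.98 TPM, still above Srf.

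CArG boxes were looked for in the promoters of the members, since 2 of them act through that box. The box was searched by its consensus, which reads the same on both strands, from 250 bases before to 50 after each RefSeq start (GRCm38.p6). Of the 44 genes 38 matched a promoter entry, all but Myh11, Tagln, Myocd, Csrp2, Nexn and Tgfb1i1, and 7 of these 38 (18.4%) held at least 1 box. Over all genes with an entry 488 of 27025 (1.81%) held one, and 181 of 10757 detected genes (1.68%). These counts are a description of letters, not of binding, and a box farther out would be missed. The 7 genes were Myl9, Myl6, Cnn2, Vcl, Dmd, Srf and Ldb3, which range from 0.850 to 1317 TPM. The boxes are shown in capitals with 20 bases on either side, 5′ to 3′ along the gene. Srf itself held 2 boxes, 82 and 62 bases before its start, and both are in the stretch shown. The box of Myl9 begins 161 bases before the start, that of Cnn2 56, Myl6 50, Vcl 227 and Dmd 98, and that of Ldb3 35 or 109 bases before its 2 annotated starts. Dmd and Myl6 each have another promoter entry, which holds no box. For Dmd the box lies at the start of the full-length model, and the entry without a box near the coding start of Dp71.
Myl9, chr2:156775283-156775332, plus strand: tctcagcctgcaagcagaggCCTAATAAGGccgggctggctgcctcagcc
Myl6, chr10:128493030-128493079, minus strand: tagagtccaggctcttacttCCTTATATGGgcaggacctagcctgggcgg
Cnn2, chr10:79988524-79988573, plus strand: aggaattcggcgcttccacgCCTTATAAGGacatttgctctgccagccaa
Vcl, chr14:20929151-20929200, plus strand: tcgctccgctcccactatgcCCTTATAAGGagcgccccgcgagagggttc
Dmd, chrX:82948752-82948801, plus strand: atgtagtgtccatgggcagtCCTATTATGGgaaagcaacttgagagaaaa
Srf, chr17:46556215-46556264, minus strand: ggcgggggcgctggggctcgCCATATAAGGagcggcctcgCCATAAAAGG
Ldb3, chr14:34588687-34588736, minus strand: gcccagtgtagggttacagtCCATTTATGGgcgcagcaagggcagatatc

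Calcium and membrane genes summed to 60.9 and 57.1 TPM over 8 members. Chrm2, the muscarinic receptor most abundant in gut muscle, read 27.4 and 24.4 TPM. Chrm3, the muscarinic receptor that couples to calcium release, read 3.55 and 3.81 TPM, so Chrm2 took 87.5% ± 1.42 of the pair. The order of the 2 receptors was the same in both libraries. Kcnma1, the pore of the calcium-activated potassium channel, read 11.2 and 8.73 TPM, and Kcnmb1, its smooth muscle beta subunit, 1.87 and 2.23 TPM. Cacna1c, the pore of the L-type calcium channel, read 6.28 and 7.01 TPM. Pln, phospholamban, which restrains the calcium pump of the store, read 5.04 and 5.43 TPM, and Jph2, which holds the store near the membrane, 4.98 and 4.93 TPM. Ryr2, a calcium release channel, read 0.60 and 0.50 TPM on 169 and 151 counts, spread evenly by the authors' estimate over a pair of near-identical models.

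The genes listed around these members were mostly present. Of 14 other genes of calcium stores and pumps 11 were detected, led by Atp2a2 (35.7 and 31.1 TPM), Atp2b1 (35.7 and 33.1 TPM) and Atp2b4 (28.5 and 28.1 TPM). The calcium pump Atp2a2 lay 6.40-fold ± 0.957 above its regulator Pln. Ryr3, at 6.36 and 7.79 TPM, and Itpr1, at 5.89 and 5.79 TPM, both exceeded Ryr2, and Itpr1 did so by 9.82-fold and 11.6-fold. The stores' genes not detected were Ryr1, Casq2 and Jph1, known from striated muscle. All 6 other calcium channel genes were detected, led by Cacnb3 (23.8 and 23.2 TPM), Cacna1g (13.7 and 10.2 TPM) and Cacna2d1 (12.5 and 11.2 TPM). Of 9 receptor and G protein genes 6 were detected, led by Gna11 (65.5 and 65.7 TPM), Plcb3 (36.1 and 31.4 TPM) and Plcb4 (31.7 and 35.3 TPM), and Tacr2, Adra1a and Htr2b were not. The 3 caveolar genes, Cav1 (285 and 256 TPM), Cavin1 (120 and 100 TPM) and Cav2 (44.1 and 36.5 TPM), and the gap junction genes Gja1 (65.7 and 58.7 TPM) and Gjc1 (43.4 and 47.8 TPM) were detected. In all, 68 of the 77 other contraction genes were detected, where 34.9% of all 43346 genes were. This list too was chosen with earlier results of these data known.

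Gene levels of several members rest on annotated fragments, which share a gene's reads but are short, so that few reads raise the TPM strongly. Of the 44 genes 13 had 1 transcript and 31 had several, and in 28 of the 31 the leading transcript was the same in both libraries. Exceptions were Cacna1c, Chrm3 and Ldb3. In 6 of the 31 the leading transcript was not a complete coding model, and in 7 the complete coding models held under 50% of the gene's TPM. Flna was the most abundant of these 7. Its complete coding models took 30.2% ± 0.64 of its transcripts but 56.7% ± 1.34 of its counts, which is 124 ± 13.0 TPM in place of 408 ± 34.5. The largest Flna share, 34.8% and 35.2%, lay on Flna-215, a non-coding fragment of 738 bases with 1621 and 1546 of 32240 and 30463 counts. Not all that was left out is short. Flna-213, of 8233 bases and annotated as nonsense-mediated decay, held 11170 and 11160 counts, with posterior SDs of 548 and 704. That was 81.5 and 76.7 TPM. It has no exon base of its own, so its reads can be placed on other models. The Flna level over complete coding models therefore leaves out more than fragments and depends on this split. Counted the same way, Cald1 came to 89.6 ± 1.63 TPM, Tln1 to 29.4 ± 1.01, Dmd to 7.34 ± 1.69, Sorbs2 to 11.3 ± 2.02, Sgcd to 2.85 ± 0.2 and Cacna1c to 2.90 ± 0.34. Over the 3 myosin heavy chains the same restriction gave Myh11 65.6% in place of 56.7%, because Myh9 and Myh10 also hold fragments and Myh11 has none. Summed over the 44 genes, complete coding models held 5369 TPM of 6116.

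**Figure D4:**
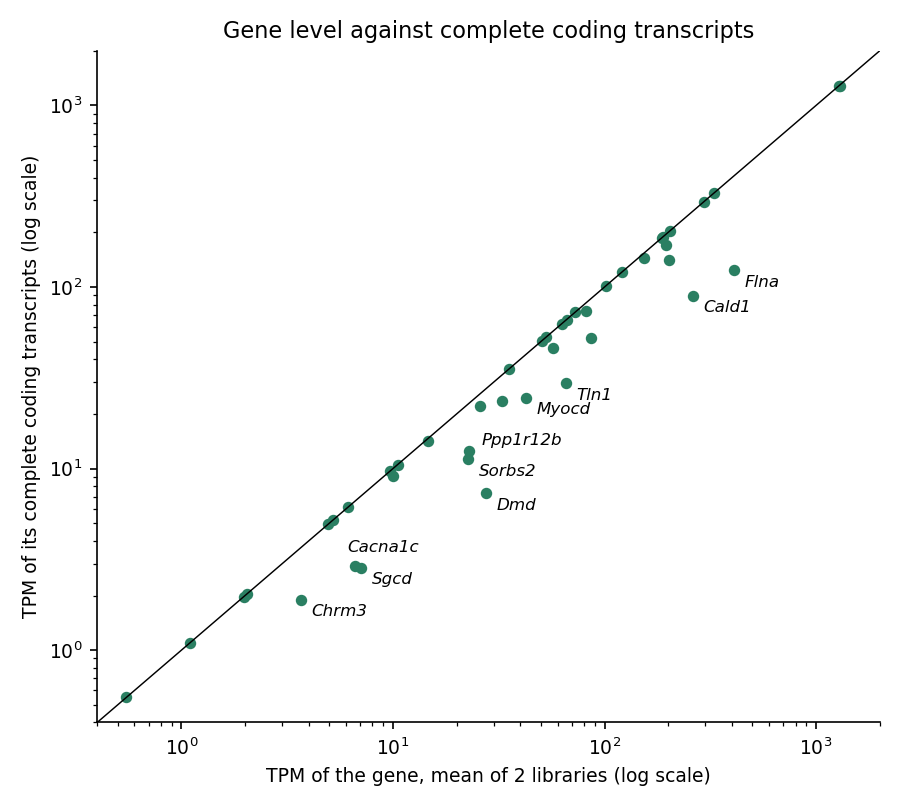
TPM of a gene (horizontal, log) against the TPM of its complete coding transcripts (vertical, log), means of 2 libraries, with a line of equality. Genes with a share under 60% are named, among them Flna at 124 of 408 TPM and Cald1 at 89.6 of 262 TPM.

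Among the other members with several forms, the leading coding model was the full-length one in most. Cnn2-201, of 305 codons, took 76.3% and 72.5%, and Cnn2-202, of 266 codons, the rest. Actn4-201 took 72.8% and 65.8% of its gene's transcripts, Tgfb1i1-207 88.6% and 86.7% and Myh9-201 83.3% and 78.8%. Pdlim7-201, of 457 codons, took 59.7% and 56.3%, and the shorter Pdlim7-203, of 222 codons, 16.3% and 19.9%. Tln1-201, of 2541 codons, took 49.1% and 40.9%, and the fragment Tln1-206, of 836 bases, 27.5% and 35.2% on 210 and 326 counts. Replicate 2, where Tln1 read 70.3 TPM against 61.4, also had the larger share on that fragment, while the counts of the gene were 4613 in replicate 1 and 4810 in replicate 2.

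Ratios between the libraries were then taken on expected counts, as replicate 2 over replicate 1 with TMM library sizes, and describe 2 libraries and not a condition. Over the 43 members whose mean count reached 100 the median log2 ratio was -0.02, against -0.01 over 12761 genes with such counts. Of the 43, 1 had a ratio under -0.32, where 4.15% of the 12761 genes had, and 1 had a ratio over 0.32, where 3.28% had. None was over 2-fold apart, where 0.298% of genes were. The ratios of 41 members lay within the central 95% of all genes, from -0.39 to 0.36.

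The lower member was Synm, with 295 and 200 counts and a log2 ratio of -0.58 (95% exact counting interval -0.85 to -0.32). Its exons overlap those of Ttc23 on the opposite strand, a gene with a mean count of 766 against 248 for Synm and a ratio of 0.20, and strand use in counting is not stated. The higher member was Chrm3, with 117 and 163 counts and a ratio of 0.45 (0.10 to 0.81). Its ratio in deposited TPM was 0.10, and its leading transcript differed between the libraries. Of the abundant members Myh11 had a ratio of -0.15 (-0.17 to -0.12) on 22304 and 20461 counts, and Flna -0.10 (-0.13 to -0.08). Myocd stood at 0.21 (0.13 to 0.30) on 2076 and 2443 counts, and Srf at 0.09 (-0.11 to 0.28). These intervals cover at most counting error and treat reads as independent. PCR copies are not independent molecules, so the intervals may be too narrow even for that error. Scaling on spike-in counts lowered every log2 ratio by 0.27, so that 2 of 43 members in place of 19 stood above 0 and Myocd at -0.06. The directions are therefore relative to the typical gene.

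**Figure D5:**
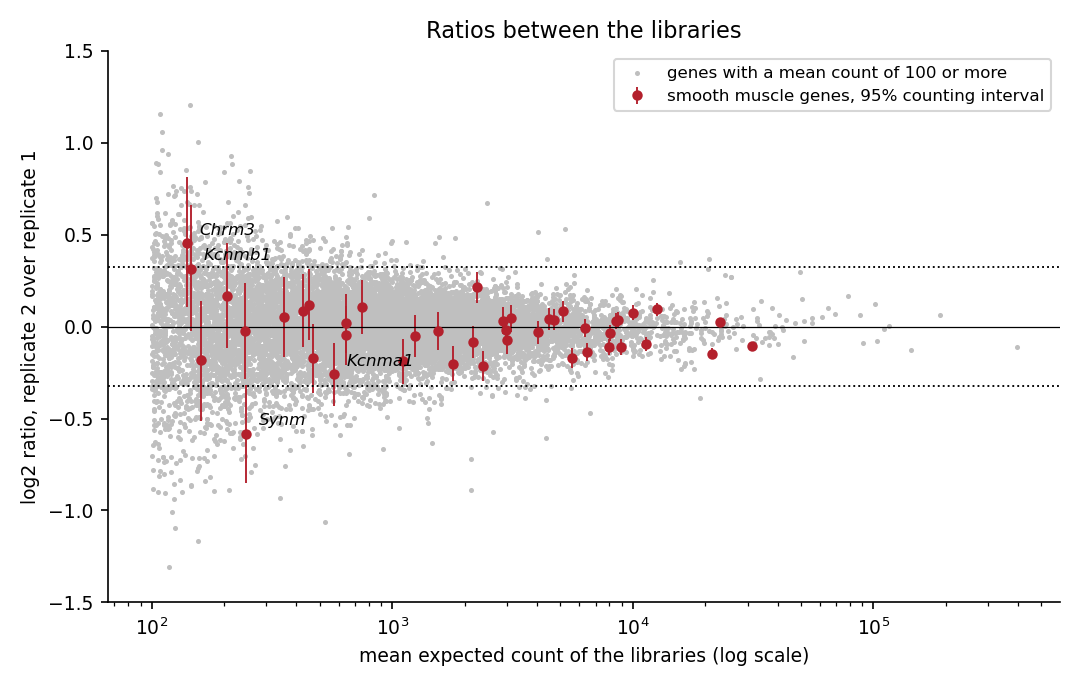
Log2 ratio of replicate 2 over replicate 1 against mean expected count (log axis) for genes whose mean count reached 100 (grey, 29 of them beyond the axis limits of 1.5) and the 43 members (red, with 95% counting intervals), with dotted lines at -0.32 and 0.32. Synm lies below the lower line at -0.58 and Chrm3 above the upper line at 0.45.

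Overlapping genes touch other members too. Exons of 16 members overlap those of another gene in GENCODE M21, on the opposite strand for 14, and in 5 the partner had over 10% of the member's counts. These were Vcl with Ap3m1 (3820 counts on average against 6451), Tln1 with Creb3 (1240 against 4711), Synm with Ttc23, Pln with Cep85l (356 against 206) and Chrm2 with 9330158H04Rik (222 against 2168). For Pln and Synm the partner had more counts than the member, and how the reads were divided between them was not tested. For the genes as a whole the authors' posterior SD of the count was at most 0.461% of it, but this holds only the spread of read assignment within the annotation used.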

How the data were processed

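Gene and transcript tables of 2 stomach libraries were used, with build mm10 and annotation GENCODE M4 per the deposited notes. Aligner, counting program and strand use: not given in the sources used here. The authors deposited expected counts, which are estimated read numbers per gene or transcript, not normalized and not always whole. The authors also deposited TPM, scaled to a total of 1000000 that includes spike-ins (12.1% and 14.2% of it), a posterior mean TPM, and IsoPct, the percent of a gene's transcripts that 1 transcript makes. Posterior SDs of counts were used as deposited. Of 43346 Ensembl genes 42462 matched a symbol. Symbols, positions and exons come from GENCODE M21 (same assembly), which holds all 258 member transcripts, 34 with another length. Promoters come from RefSeq (GRCm38.p6).

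Detection means at least TPM 1 in each library. Log2 ratios used expected counts plus 0.5 and TMM library sizes (edgeR 4.0.16, R 4.3.3), for genes whose mean count reached 100. Without a second group no test was fitted and no p-value exists; the spread between these 2 libraries also holds technical spread. Counting intervals are exact binomial (95%, scipy 1.17.1) on rounded counts. A chi-square over genes gave 153110 on 17509 degrees of freedom, more than counting noise alone, so the libraries were not counted as 1 deposited again; this does not tell biological from technical spread. Complete coding models are protein-coding transcripts with no incomplete end. Named were all 44 members, isoforms of 10 listed genes and up to 8 further members by level, and the 3 highest of each list of related genes with every one not detected. Myh10 forms were described beyond that list. The members and lists were chosen with earlier results of these data known. Alternatives were DESeq2 1.42.0 size factors, other scalings, filters, thresholds, posterior means, counts in place of TPM, and 1 library alone. The ratio procedure was tested on simulated counts. Other tools were Python 3.11.15, numpy 2.4.6, pandas 2.3.3 and matplotlib 3.10.9. Some genes of these lists are not reported here.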

Additional observations from a re-analysis of the deposited data

How the results depend on the processing

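Of the alternatives other than single libraries, 40 of 83 stayed within the limit set for their result. That limit was the SD between libraries for sums and shares, and 1.5 times for counts. For the median log2 ratio it was 0.079, the median half-width of the members' counting intervals, which is no spread between libraries. The number of members detected stayed within its limit under all of its own alternatives (40 to 44). The complete-coding and shared-exon alternatives were chosen after seeing the data. The summed TPM was 5946 from posterior means, 7338 rescaled over nuclear genes and 5369 over complete coding models. Scaling on spike-ins gave a median log2 ratio of -0.29 and 16 members past a log2 ratio of 0.32 in size, all lower in replicate 2, where 36.7% of all genes were past it. The shared-exon alternative left out the 5 members whose overlapping partner had over 10% of their counts. With TMM sizes it left 1 member past that ratio. Shares in expected counts, with no division by length, were 59.95% for Myh11, 44.3% for Cnn1, 64.6% for Myl9, 78.3% for Csrp1, 54.8% for Ppp1r12a and 93.9% for Chrm2 within their families, and for isoforms 5.32% (heavy Cald1), 66.7% (light Cald1), 30.3% (smooth muscle Actn1), 96.3% (long Smtn), 1.69% (short Smtn), 68.7% (Prkg1 beta), 29.8% (Prkg1 alpha), 27.1% (full-length Dmd), 34.6% (Dp71), 94.3% (long Myocd) and 99.7% (long Mylk). Over protein-coding transcripts only, heavy Cald1 was 2.80%, light Cald1 41.4%, long Smtn 93.4%, full-length Dmd 18.3%, Dp71 81.7%, long Myocd 99.7% and long Mylk 100%. Over complete coding models they were 6.34%, 93.7%, 96.8%, 18.3%, 81.7%, 100% and 100%, with short Smtn at 3.24% and Myh11 at 65.6%. Posterior means gave 20.6% for Actn1 of its pair, 31.8% for light Cald1, 69.7% for Prkg1 beta and 55.2% for long Myocd. Dividing by length or not, and the models counted, set these shares by construction, and for posterior means and spike-ins the cause was not tested. With 1 library left out, the members detected ranged from 42 to 43, the summed TPM from 6010 to 6222, Myh11 from 55.5% to 58.0%, Cnn1 from 39.6% to 42.1%, Myl9 from 49.7% to 50.9%, Actn1 from 20.7% to 20.8%, Csrp1 from 63.4% to 65.8%, Ppp1r12a from 67.6% to 70.2% and Chrm2 from 86.5% to 88.5%. Ratios between libraries have no such alternative, since both are needed. No paired analysis was possible because there is 1 group. Counts of 100 or fewer, as for short Smtn or Ldb3, limit what can be read from these genes.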
